A study of Mus musculus with 3 samples.

Results

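The chemokine ligands are small secreted or membrane-tethered proteins that recruit leukocytes. They were taken here as every row of the count table whose symbol is a Cxcl or Ccl gene with its number, plus Cx3cl1, Xcl1, Pf4 and Ppbp. This gave 41 of 34591 gene rows. Their levels come from RNA sequencing (3 libraries) of cultured 4T1 cells, a metastatic mouse breast cancer line, with stable over-expression of WISP2, a CCN-family protein that cells release into the matrix. All 3 libraries carry the genotype WISP2 OE; the cells received a packaged vector and were selected with puromycin, per a protocol that describes Wisp1 constructs. The empty-vector 4T1 controls that the design text names were not analysed here, so the values describe 1 state of the cells and no effect of WISP2. The column suffixes C1, C2 and C3, which match no sample title, serve as library names. No source says whether they came from separate cultures, so the spread between them may be technical.

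Chemokines signal through G protein-coupled receptors on leukocytes and are sorted by the spacing of their first cysteines into the CXC, CC, XC and CX3C families. CXC ligands of CXCR2 attract neutrophils, ligands of CCR2 and CX3CR1 attract monocytes, and ligands of CXCR3, CXCR6, CCR7 and CCR9 attract lymphocytes. Many of them are held at low levels in resting epithelium and are switched on by NF-kB or interferon signalling. In mammary carcinomas, chemokines made by the tumour cells are known to draw in myeloid cells.

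The libraries held 17630755, 67028365 and 47577315 gene-assigned counts in C1, C2 and C3, and levels are given as CPM, the usual counts-per-million scale, on these totals. Wisp2 itself stood at 429, 384 and 454 CPM. The epithelial markers Krt8, Krt18, Cdh1 and Epcam of the labelled line summed to between 2510 and 2762 CPM. Macrophage markers were present at a low level and uneven. Lyz2, Emr1, Csf1r, Cd68, Itgam and Tyrobp had a summed level of 18.9 CPM for C1, 9.50 for C2 and 9.63 for C3. Lyz2 alone stood at 9.42, 3.12 and 3.78 CPM. Of these markers 6 of 6 were highest in C1, and the share of all genes highest there was not computed. Of 4 that could be tested, 3 passed the Poisson dispersion test described below, beside 39.3% of all genes tested, and Cd68 did not. Of the neutrophil markers S100a9, Ly6g and Mpo had 0 counts and S100a8 had 4 in all. The general leukocyte genes Ptprc, Laptm5 and Coro1a summed to 1.47, 0.567 and 0.820 CPM; Laptm5 and Coro1a were highest in C1 and Ptprc was lowest there. Of the T cell genes Cd3e and Cd3d had 0 while Trac stood at 1.36, 1.82 and 1.60 CPM. Endothelial markers summed to at most 0.284 CPM, and of the fibroblast list only Pdgfra, at 18.3 ± 1.03 CPM, reached 1 CPM.

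Few of the ligands were expressed. Of the 41, 9 reached 1 CPM in every library (21.95%, beside 33.8% of all gene rows), 6 stood below that with 10 or more summed counts, 6 had between 1 and 9 counts, and 20 (48.8%, beside 45.7% of all rows) had no count. The median over the 41 was 0.00701 CPM, and over all rows 0.00995 CPM. In bulk RNA, few cells that express a gene and little RNA per cell cannot be told apart. The 41 ligands together took 2589, 9571 and 7509 counts, or 147, 143 and 158 CPM in C1, C2 and C3 (149 ± 7.78 CPM; SD, n = 3). A group of 4 genes carried most of this: the lymphocyte attractant Cxcl16, the monocyte attractant Cx3cl1, and the neutrophil attractants Cxcl5 and Cxcl1, which alone exceeded 5 CPM in every library.

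**Figure D1:**
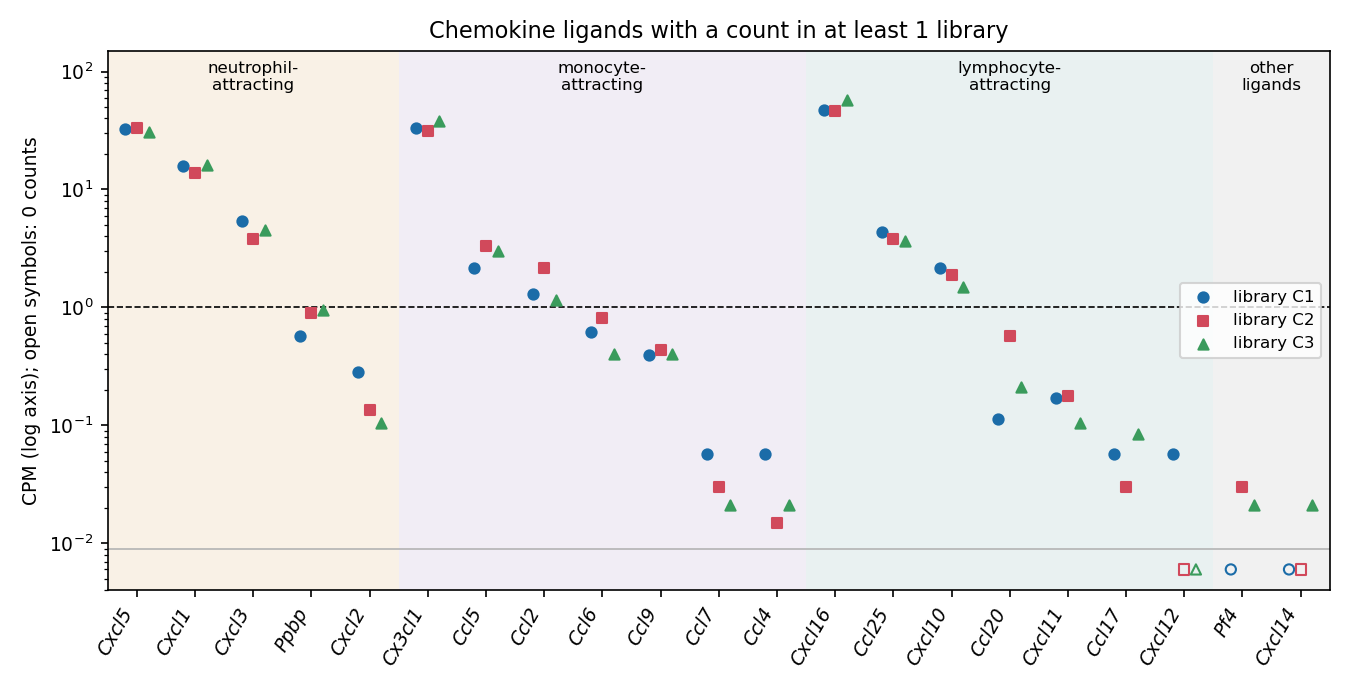
Level of the 21 chemokine ligands with a count, in CPM on a log axis, by class; each symbol is 1 of the 3 libraries, open symbols below the grey line are 0 counts, and the dashed line marks 1 CPM. In each of the 3 named classes, 3 ligands lie above the dashed line in every library, and Cxcl16, between 46.3 and 56.9 CPM, is the highest on this scale.

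Of 6 neutrophil-attracting ligands 3 reached 1 CPM, of 10 monocyte-attracting ligands 3, of 19 lymphocyte-attracting ligands 3, and of 6 other ligands 0. Divided by transcript length, as RPKM (CPM for each kilobase of transcript), the neutrophil-attracting class took 49.5% ± 1.90 of the ligand total, the lymphocyte-attracting class 29.0% ± 1.04 and the monocyte-attracting class 21.4% ± 1.71 (SD, n = 3). The neutrophil-attracting class was the largest in 3 of 3 libraries on that scale. Without the division, it took 35.6% ± 1.98 of ligand counts and the lymphocyte-attracting class 37.9% ± 1.47, so which of them leads depends on the length correction.

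Of the neutrophil attractants, Cxcl5, which binds CXCR2, stood at 32.5, 33.3 and 31.0 CPM in C1, C2 and C3. These are the closest values of any ligand at 1 CPM or more, with a coefficient of variation of 3.65%. The median over 6789 genes at 10 to 100 CPM was 4.66%, so the value is near the usual one at that level. Cxcl1, the mouse GRO chemokine also known as KC, stood at 15.8, 13.8 and 16.1 CPM, lowest in C2. Cxcl3, a near relative, stood at 5.39, 3.77 and 4.56 CPM, highest in C1 and again lowest in C2. Ppbp, a chemokine best known from platelets, lay just below the threshold at 0.567, 0.895 and 0.946 CPM, and the platelet markers Itga2b, Gp1bb and Gp9 summed to 0.737, 0.850 and 0.841 CPM; whether these markers bear on the Ppbp level was not tested. Cxcl2, the macrophage inflammatory protein that is often induced together with Cxcl1, had 5, 9 and 5 counts, or 0.284, 0.134 and 0.105 CPM, and Cxcl15, a chemokine of lung, had 0.

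Cxcl5, Ppbp, Pf4, Cxcl3, Cxcl15, Cxcl1 and Cxcl2 lie in this order on chromosome 5 of the RefSeq annotation (GRCm38.p6), with at most 3 other protein-coding genes between neighbours, so genes of 1 chromosomal block differed widely in level. Per length, Cxcl1 exceeded Cxcl2 by 6.68 ± 0.74 on the log2 scale (103-fold; SD, n = 3) and Cxcl3 exceeded Cxcl2 by 4.85 ± 0.59 (28.8-fold), each in 3 of 3 libraries. Cxcl5 exceeded Ppbp by 4.79 ± 0.39 (27.7-fold), and Cxcl1 by 0.36 ± 0.17 (1.28-fold), again in 3 of 3. With all annotated exons as the length, the ratio of Cxcl5 to Cxcl1 was 2.14-fold and that of Cxcl3 to Cxcl2 was 15.6-fold, so the size of both rests on the length used. Each log2 ratio was computed inside a library after adding 0.5 counts to both genes. With 3 libraries the smallest p of an exact sign-flip test is 0.25, and no p is given for ratios.

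The 120 bases before the annotated start of 6 ligand genes are shown because neighbours in that block, and ligands of other classes, can be set side by side with their levels. They come from RefSeq (GRCm38.p6, another build than the mm9 that the submitters name) and are written 5′ to 3′ on the strand of the gene; capitals mark matches to the kappaB consensus, the sequence that NF-kB dimers bind.
Cxcl1, chr5:90891125-90891244, plus strand: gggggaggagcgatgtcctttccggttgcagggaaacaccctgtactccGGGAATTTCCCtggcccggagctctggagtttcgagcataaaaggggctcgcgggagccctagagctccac
Cxcl3, chr5:90785981-90786100, plus strand: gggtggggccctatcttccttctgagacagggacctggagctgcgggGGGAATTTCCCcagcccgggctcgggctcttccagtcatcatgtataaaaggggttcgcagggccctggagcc
Cxcl2, chr5:90903779-90903898, plus strand: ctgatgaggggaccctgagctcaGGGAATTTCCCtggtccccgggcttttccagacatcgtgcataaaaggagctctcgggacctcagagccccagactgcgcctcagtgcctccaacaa
Ppbp, chr5:90768398-90768517, plus strand: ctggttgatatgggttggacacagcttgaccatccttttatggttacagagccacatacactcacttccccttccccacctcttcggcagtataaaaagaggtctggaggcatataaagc
Cx3cl1, chr8:94772060-94772179, plus strand: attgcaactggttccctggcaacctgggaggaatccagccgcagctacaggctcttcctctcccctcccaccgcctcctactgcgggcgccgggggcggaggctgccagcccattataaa
Cxcl10, chr5:92348890-92349009, minus strand: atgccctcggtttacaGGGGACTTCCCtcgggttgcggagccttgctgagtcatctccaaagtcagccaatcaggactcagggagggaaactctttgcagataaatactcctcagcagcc

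Cxcl1, Cxcl3 and Cxcl2 held the same 11-base match, at 71 to 61, 73 to 63 and 97 to 87 bases before the annotated start. Their mean levels per length were 15.97, 4.50 and 0.157 RPKM, and whether the match bears on these levels was not tested. The windows of Ppbp and Cx3cl1 held no such letters, and Cxcl10 held a match in the part shown and another farther upstream. In the 250 bases before the start, searched on both strands with overlapping matches merged, a kappaB match was found in 7 of 35 promoters of 29 ligands (some genes have several) and in 7.25% of all 32851 promoters. The ligands were Ccl1, Ccl9, Ccl20, Cxcl1, Cxcl2, Cxcl3 and Cxcl10, of which Ccl1 had no count. TATAAA, searched on the gene strand, occurred in 10 of the 35 and in 7.59% of all; the AP-1 motif TGANTCA in 5 and 6.75%; the C/EBP motif TTNNGNAAT in 5 and 10.2%; and the interferon-stimulated response element in 3, including Cxcl10, and 2.98%. Cxcl5, Cxcl16, Ccl5 and Ccl2 had no promoter in the table. A match is a description of letters and not a bound site.

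Of the monocyte attractants, Cx3cl1 (fractalkine), which is made as a membrane-anchored protein and binds CX3CR1, stood at 33.4, 31.3 and 37.7 CPM and was highest in C3. Ccl5 (RANTES), which also attracts T cells, stood at 2.16, 3.30 and 2.98 CPM, lowest in C1. Ccl2, the main ligand of CCR2, stood at 1.30, 2.15 and 1.16 CPM, and the exact 95% counting interval of C2 (1.81 to 2.53) did not overlap that of C3 (0.871 to 1.505). Ccl2 was thus near the threshold in C1 and C3.

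The remaining monocyte attractants were below 1 CPM in each library. Ccl6 stood at 0.624, 0.806 and 0.399 CPM and Ccl9 at 0.397, 0.433 and 0.399 CPM; both are known as products of myeloid cells. Their counting intervals in C1 and C2 overlapped, and the part of the macrophage markers in these levels was not tested. Ccl7, a further CCR2 ligand that lies beside Ccl2 on chromosome 11, had 1, 2 and 1 counts against 23, 144 and 55 for Ccl2. Ccl4 had 3 counts, and Ccl3, Ccl8 and Ccl12 had 0. With 3 counts as the limit, a count of 0 leaves room for 0.170, 0.0448 and 0.0631 CPM in the respective libraries. Intervals and limits cover counting error only.

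Of the lymphocyte attractants, Cxcl16, the ligand of CXCR6 and with Cx3cl1 the other membrane-anchored chemokine, stood at 47.5, 46.3 and 56.9 CPM. Its interval in C3 (54.8 to 59.1) lay above those in C1 (44.3 to 50.8) and C2 (44.7 to 48.0). Ccl25, the thymus and gut chemokine that binds CCR9, stood at 4.37, 3.80 and 3.66 CPM, with overlapping intervals in all libraries. Cxcl10, the interferon-induced ligand of CXCR3, stood at 2.16, 1.88 and 1.49 CPM, whereas Cxcl9, its interferon-gamma-induced relative, had 0 counts and Cxcl11 had 20 in all. Cxcl11 is annotated as a transcribed pseudogene in that RefSeq assembly, which is of the C57BL/6J strain.

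Ccl20, the ligand of CCR6, had 2, 38 and 10 counts, or 0.113, 0.567 and 0.210 CPM. The counting interval of C2 (0.401 to 0.778) lay above that of C3 (0.101 to 0.387) and overlapped that of C1 (0.0137 to 0.410). Ccl17 had 7 counts and Cxcl12, the stromal ligand of CXCR4, had 1. With Cxcl9, 12 lymphocyte attractants had 0 counts: the homeostatic ligands Ccl19, Ccl21a, Ccl21b, Ccl21c and Cxcl13, the CCR10 ligands Ccl27a, Ccl27b and Ccl28, and Ccl22, Ccl1 and Xcl1 were the others. Near-identical copies such as the Ccl21 and Ccl27 genes can lose reads that match several genes, and the treatment of such reads is not given in the sources used here. Ccl22 and Ccl17 flank Cx3cl1 on chromosome 8, so the abundant ligand of that block lay between a gene at 0 and a gene with 7 counts. Among other ligands Pf4 had 3 counts, Cxcl14 had 1, and the eotaxins Ccl11, Ccl24 and Ccl26 and Cxcl17 had 0.

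Both membrane-anchored ligands, Cxcl16 and Cx3cl1, were among the leading genes. Together they took 56.5% ± 3.03 of ligand counts, and 34.1% ± 2.68 of the ligand total in RPKM (SD, n = 3). The ratio of Cxcl16 to Cx3cl1 per length was 0.81, 0.86 and 0.89 on the log2 scale in C1, C2 and C3 (1.80-fold on average). Both were highest in C3 and lowest in C2. Cxcl1 and the epithelial markers Krt8 and Krt18, though not Cdh1 and Epcam, had the same order, so it was not particular to this pair. The sheddases that release their soluble forms were abundant: Adam10 stood at 158, 177 and 155 CPM and Adam17 at 120.2, 124 and 123 CPM. The proprotein convertase Furin stood at 105 ± 8.10 CPM. Dpp4, which trims the ends of several chemokines, had 4 counts in all.

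Across genes the order was taken per length. Cxcl5 (20.5 ± 0.748 RPKM) was followed by Cxcl16 (18.6 ± 2.14), Cxcl1 (15.97 ± 1.29), Cx3cl1 (10.3 ± 0.983), Ccl5 (5.29 ± 1.11), Cxcl3 (4.50 ± 0.794), Ccl25 (3.72 ± 0.353), Ccl2 (1.89 ± 0.658) and Cxcl10 (1.68 ± 0.304; SD, n = 3 each). The order was set by the means of these same 3 libraries, so the direction of the neighbour ratios was largely fixed by the sorting. Of the 8 neighbouring pairs 5 had a log2 ratio of 1 sign in 3 of 3 libraries and a mean above its SD. This describes the spread and is not a test. Cxcl5 and Cxcl16 (log2 ratio 0.14 ± 0.21), Ccl5 and Cxcl3 (0.23 ± 0.56) and Ccl2 and Cxcl10 (0.13 ± 0.46) did not differ beyond their spread. Set among the 10711 genes at 1 CPM or more that had a length, Cxcl5 lay above 65.7% of them, Cxcl16 above 62.6%, Cxcl1 above 58.4% and Cx3cl1 above 45.5%, while Cxcl10 lay above 9.76% and Ccl2 above 11.0%. The most expressed ligands were thus of middling level among the genes at 1 CPM or more in this cell line.

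**Figure D2:**
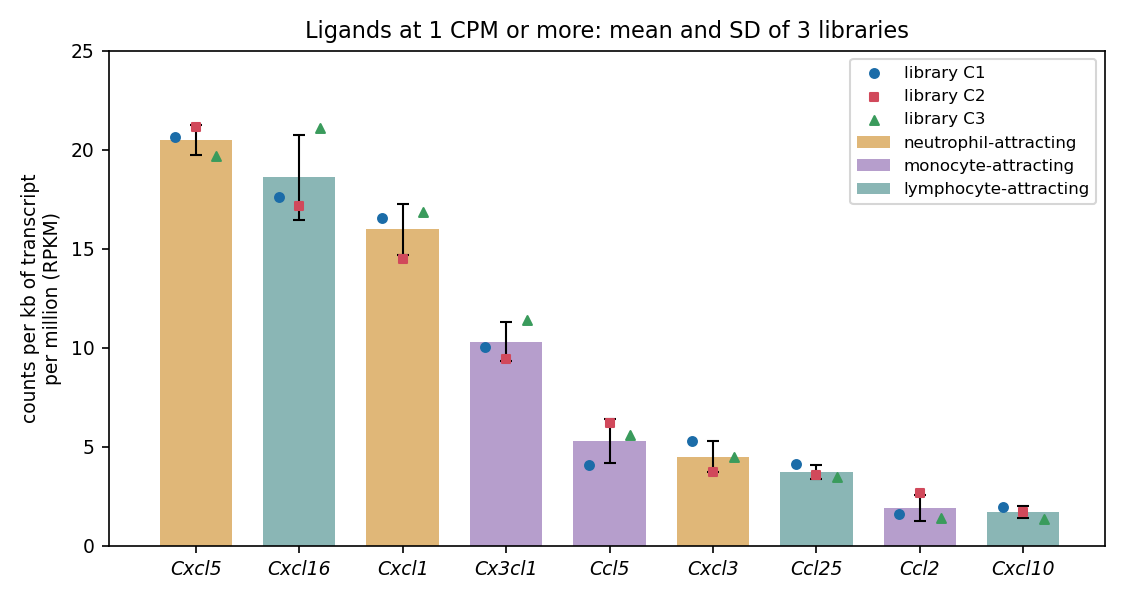
Level per length of the 9 ligands at 1 CPM or more, in RPKM on a linear axis; bars and error bars are the mean and SD of 3 libraries, symbols are single libraries and colours give the class. Cxcl5, at 20.5 RPKM, and Cxcl16, at 18.6, overlap in their libraries, and the last 5 genes lie below 7 RPKM.

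With all annotated exons as the length, retained introns included, Cx3cl1 came before Cxcl1, by 0.10 ± 0.08 on the log2 scale, and Ccl25 became the last of the 9. The length of Ccl25 changed most, from 1061 to 7445 bases. Exons of 4 of the 21 ligands with a count overlap those of another gene on the opposite strand in GENCODE M21: 18.3% of the exon bases of Cxcl16 lie across from Zmynd15, 5.91% of those of Cxcl10 across from Art3, 2.74% of those of Ccl25 across from Elavl1, and 41.7% of those of Cxcl11 across from a processed pseudogene. The strand setting of the counting is not given in the sources used here, so such reads cannot be told apart.

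The libraries differed in 5 of the ligands by more than counting noise. After the edgeR filter on low counts 12 of the 41 ligands could be tested, and 5 of these (41.7%) passed a Poisson dispersion test with Benjamini-Hochberg adjustment over 13026 genes, beside 39.3% of all genes tested. The share was near that of all genes. Cxcl16 had an adjusted p of 4.8e-14, Cx3cl1 of 2.4e-07, Ccl2 of 0.000668, Cxcl1 of 0.0129 and Cxcl3 of 0.0199 in this chi-square test. Cxcl16, Cx3cl1 and Cxcl1 were highest in C3 and lowest in C2, Ccl2 was highest in C2, and Cxcl3 in C1. The size was modest, with a ratio of highest to lowest library between 1.16 for Cxcl1 and 1.86 for Ccl2. With C2 left out only Cxcl16 passed, with C3 left out only Cxcl3, and with C1 left out 6 did. The share of all genes tested that passed moved too, to 13.8% without C2, 12.9% without C3 and 36.8% without C1.

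Against genes of similar level none of the 12 stood out. The edgeR quasi-likelihood F test called 0 ligands, beside 9 of 13026 genes (0.0691%), and 2 of the 12 ligands had an unadjusted p under 0.05, beside 671 of all genes tested (5.15%): Cxcl16 at 0.0244 (adjusted p = 0.837) and Ccl2 at 0.0354 (adjusted p = 0.916). Cxcl5 lay below the trend for its level, with a ratio of its dispersion to that trend of 0.418, and Cxcl16 above it, with 5.73. The F test asks only about spread above the trend. Ccl20 did not pass the filter; with every gene that had a count kept, it passed the Poisson test (adjusted p = 0.00731) but not the edgeR F test (adjusted p = 0.492).

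**Figure D3:**
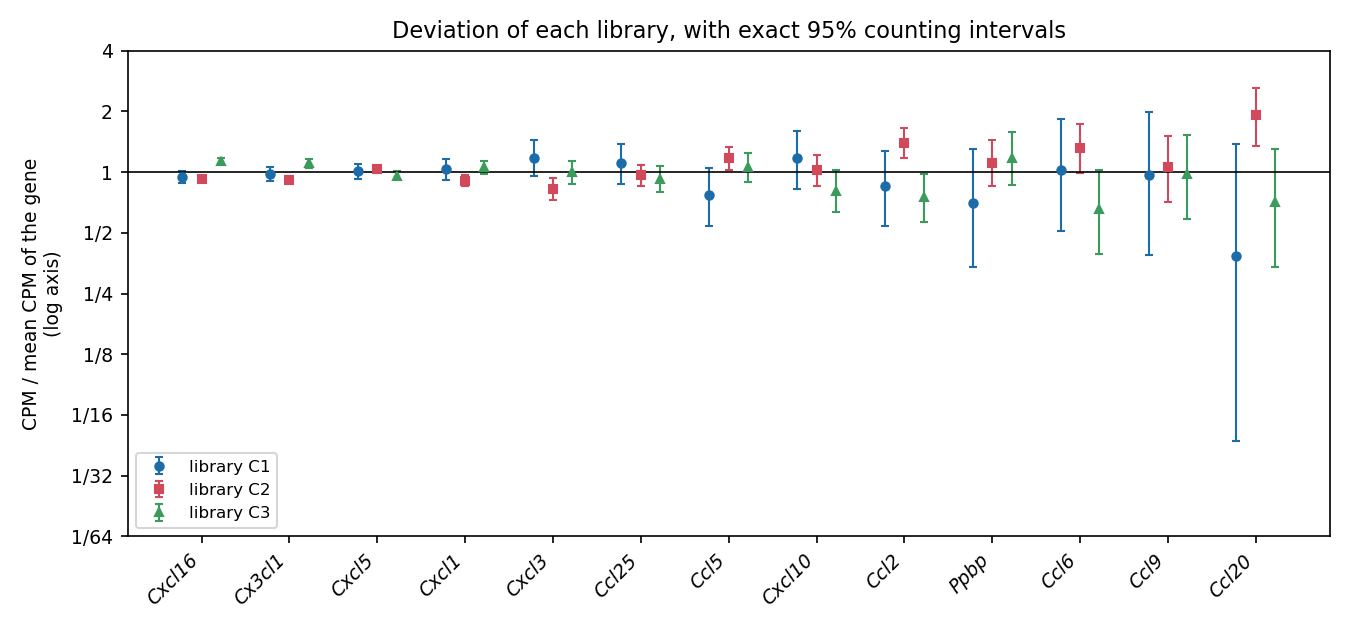
CPM of each library divided by the mean CPM of the gene, on a log axis, for the 13 ligands with 50 or more summed counts; bars are exact 95% binomial (Clopper-Pearson) intervals of the single library. Cxcl16 and Cx3cl1 lie highest in C3, Ccl2 and Ccl20 highest in C2, and the intervals widen to the right as counts fall.

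**Figure D4:**
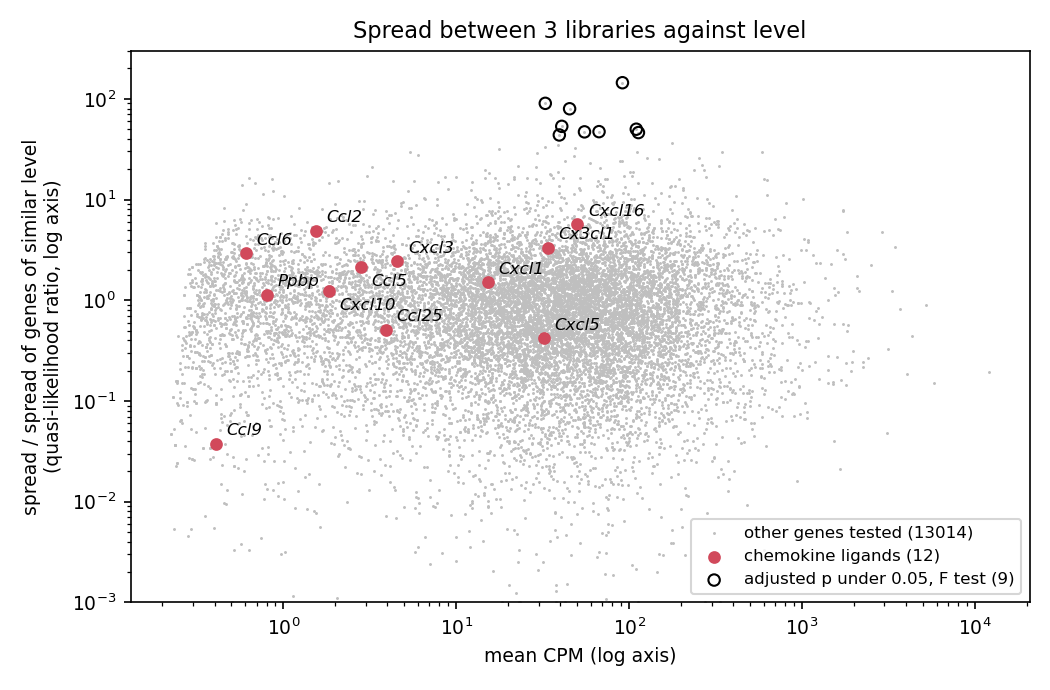
Spread between the 3 libraries relative to genes of similar level (quasi-likelihood dispersion over its trend, log axis) against mean CPM (log axis); each dot is 1 of 13026 genes, red dots are the 12 ligands tested and open circles the 9 genes past the edgeR F test, and the lowest values are drawn at the lower edge. The ligands lie within the cloud of the other genes, from 0.0378 for Ccl9 to 5.73 for Cxcl16.

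The signalling receptors for these ligands were all at low levels. None of 18 signalling chemokine receptors reached 1 CPM in every library, beside 33.8% of all gene rows. Of the 18, 5 had 0 counts, beside 45.7% of all gene rows. Cxcr3, the receptor of Cxcl9 and Cxcl10, stood at 0.624, 0.254 and 0.652 CPM and Cxcr2, the receptor of Cxcl1, Cxcl3 and Cxcl5, at 0.624, 0.507 and 0.357 CPM. Ccr10 (0.126 CPM) and Cxcr4 (0.119 CPM) followed on average, and Cxcr6 and Cx3cr1, the receptors of Cxcl16 and Cx3cl1, had 6 and 10 counts in all. Of 13 receptors with a count 8 were highest in C1, and the share of all genes highest there was not computed. In C1 1 count was worth 0.0567 CPM, against 0.0149 in C2 and 0.0210 in C3. Receptors with few counts, such as Ccr1 with 1 and Ccr3 with 2, can therefore rank highest in C1 through counting alone. The macrophage markers were also highest in C1, and the part of such cells was not tested. In a list of 7 atypical and related receptors only Cxcr7 reached 1 CPM in every library, at 60.7, 58.5 and 65.6 CPM. It scavenges Cxcl12, which had 1 count. Ccrl2 had 7 counts, Ccbp2 had 1, and Darc and the 3 others had 0.

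All 17 listed regulators of chemokine transcription and mRNA decay reached 1 CPM in every library, beside 33.8% of all gene rows. The list was chosen with earlier results of these data known. Highest was the NF-kB subunit Nfkb2 at 273, 246 and 279 CPM, then the mRNA decay factor Zfp36l2 at 232, 246 and 239 CPM. The stabilising RNA-binding protein Elavl1 followed at 151, 144 and 150 CPM, and the NF-kB subunit Nfkb1 at 147, 143 and 147 CPM. Between libraries 11 of the 17 passed the Poisson test, beside 39.3% of all genes tested, and 0 the edgeR F test, beside 0.0691%. The Poisson test finds smaller differences at higher counts, and its share for genes of similar level was not computed. The median of the 17 was 34.5 CPM. Of the 17, 8 were highest in C3, 5 in C2 and 4 in C1. The share of all genes highest in each library was not computed.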

How the data were processed

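Messenger RNA of 3 libraries of WISP2 over-expressing 4T1 cells was sequenced from a stranded poly(A) preparation, per the labels' protocols. The deposited table gives whole-number read counts per gene symbol that the authors did not normalize, per the file headers and values. The submitters' processing notes name CASAVA 1.7, BWA, STAR, HTSeq and the build mm9, with no role or order. The 3 columns were mapped to the group and not to single samples. CPM used the total of gene-assigned counts; 1 count was worth 0.0567, 0.0149 and 0.0210 CPM in C1, C2 and C3. RPKM used the longest RefSeq-linked transcript of GENCODE M21, available for 21 of 21 ligands with a count; this choice was made after the lengths were seen. Spread was tested with edgeR 4.0.16 (R 4.3.3; TMM, filterByExpr, intercept-only) by a Poisson dispersion test and a quasi-likelihood F test, tested on simulated data, with Benjamini-Hochberg adjustment at 0.05 over all genes. Alternatives were total-count scaling, DESeq2 1.42.0 size factors, no filter, a robust prior, other thresholds and leaving out each library. Members and lists were chosen with earlier results of these data known. Named are ligands at 1 CPM or more, those with 10 or more summed counts and the 4 most abundant genes of each pathway list; other ligands are named with their counts. Protein sequences were not used here.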

Additional observations from a re-analysis of the deposited data

How the results depend on the processing

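The number of ligands past the Poisson dispersion test was 5 with TMM, total-count scaling and DESeq2 size factors and 6 without the filter. Without the filter 26.5% of all genes tested passed, against 39.3% in the main setting. Leaving out a library gave from 1 (without C2 or without C3) to 6 (without C1). The genes called among all tested numbered 5118 with the 3 libraries, 1761 without C2, 1667 without C3 and 4909 without C1. The quasi-likelihood F test of edgeR called 0 ligands in the main setting and in each of 7 alternatives. At 5 CPM 4 ligands were counted as expressed in every library, against 9 at 1 CPM and 10 at 0.5 CPM. The share of all gene rows was computed at 1 CPM only, where it was 33.8%. Of 8 neighbouring pairs per length 5 met the rule on sign and SD. Under the alternatives, which included levels not divided by length, from 4 to 6 pairs did. The genes were sorted anew in each alternative, so these counts can cover different pairs and do not show that the order held. The length of all annotated exons was added after the data were seen. No paired analysis was possible because all libraries belong to 1 group. Depth limits the ligands under 10 counts.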
